A study of Sus scrofa with 37 samples.

Results

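The genes described here encode the proteasome, the large protease that degrades ubiquitin-tagged proteins, with its activators and assembly factors. They were taken by name alone, as the rows of the count table whose symbol starts with PSMA, PSMB, PSMC, PSMD, PSME, PSMF or PSMG followed by a digit. Of the 9418 rows, 38 matched, and all 38 passed the filter on low counts that left 9411 genes for testing. They comprised 6 genes of the 20S alpha ring (PSMA1, PSMA3, PSMA4, PSMA5, PSMA6 and PSMA7) and 5 of its constitutive beta rings (PSMB1, PSMB2, PSMB3, PSMB4 and PSMB7). The immunoproteasome was represented by PSMB8, PSMB9 and PSMB10, the 19S cap by 6 ATPases (PSMC1 to PSMC6) and 10 other subunits (PSMD1, PSMD3, PSMD4, PSMD6, PSMD7, PSMD8, PSMD11, PSMD12, PSMD13 and PSMD14). The rest were the cap assembly chaperones PSMD5 and PSMD10, the activators PSME3 and PSME4, the modulator PSMF1, the core assembly chaperones PSMG3 and PSMG4, and PSME3IP1, whose product binds PSME3 and is no subunit. PSMA2, PSMB5, PSMB6, PSMD2, PSME1, PSME2, PSMG1 and PSMG2 were not analysed here.

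RNA sequencing followed the skeletal muscle of Bama minipigs, small pigs bred for laboratory use, after contusion, a blunt injury that bruises muscle without opening the skin. A control group of 9 libraries stands beside 7 injury groups of 4 libraries each, at 4 and 8 h, at 12 and 16 h, at 20 and 24 h, and at 48 h. Mechanical damage is the labelled treatment in every one of the 37 libraries, so also in the controls, and the sources used here do not say how control muscle was handled. The 8 minipigs of the design are not tied to libraries, so p-values measure the spread between libraries, of which several may share an animal, and all comparisons with the controls share the same 9.

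In the proteasome, rings of alpha subunits form the gate of a barrel-shaped 20S core and rings of beta subunits hold its protease sites. The 19S cap binds ubiquitin chains, removes them, and threads the unfolded substrate into the core with its ATPases. Interferon and inflammatory signals replace the constitutive protease subunits by PSMB8, PSMB9 and PSMB10, which changes the peptides made for antigen presentation. In skeletal muscle this pathway is best known for the breakdown of myofibrillar proteins during wasting, when ubiquitin ligases such as TRIM63 and FBXO32 are induced.

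Values are CPM, counts-per-million with the column total scaled by TMM, a normalization that assumes most genes keep their level. Column totals ran from 9.86 to 22.9 M counts, and the 3 libraries above 20 M were 4 h replicate 3 and 24 h replicates 2 and 4. Libraries fell into 5 sets by total and by the levels of C1QBP, NDUFAF8 and ND6, which were defined in earlier work on these data and cross the times unevenly. The control and 48 h libraries, for example, hold none of the 8 libraries of the set with low NDUFAF8 (4 h replicates 1, 2 and 4, 12 h replicates 3 and 4, 20 h replicates 1 and 4, and 24 h replicate 3). Of 16 muscle fibre markers 9 were measured, none of them at 0, and their summed level had a median of 99962 CPM in the controls and 39179 CPM at 24 h. All 8 pan-leukocyte markers were measured, with sums of 42 to 93.5 CPM in the controls and 97.9 to 678 CPM at 8 h. In bulk tissue, fewer cells of a type and less RNA per cell cannot be told apart.

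Proteasome genes rose together at 24 h after injury. At that time 28 of the 38 passed the test (edgeR quasi-likelihood, Benjamini-Hochberg adjusted p under 0.05 over all genes tested) and all 28 were higher than in the controls, where 53.9% of all genes passed, 26.8% as higher and 27.1% as lower. Their median log2 change was 0.59 over the 38 genes, against -0.02 over all genes tested. The earlier times showed less of this. At 4 h 1 of 38 was called, as higher, with 18.3% of all genes called (9.22% higher, 9.06% lower). This count was 2 without control replicate 5 or 7 and 3 without 4 h replicate 1. At 8 h 14 were called, 10 higher and 4 lower, with 54% of all genes called (25.8% higher, 28.2% lower), and 6 higher and 5 lower when scaled by column totals. At 12 h 9 were called, all higher, with 31% of all genes called (16.3% higher, 14.7% lower), but 3 without 12 h replicate 1 and 5 without 12 h replicate 2. At 16 h 16 were called, of which 15 were higher, with 53.1% of all genes called (25.3% higher, 27.8% lower). At 20 h 16 were called, of which 15 were higher, with 51.5% of all genes called (25.4% higher, 26.2% lower). The median over the 38 genes was 0.04, 0.03, 0.23, 0.27 and 0.19 at these 5 times in order. In the test of the 7 times together 34 of 38 passed, a share near the 83.2% of all genes.

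The group with the highest mean was 24 h for 26 of the 38 genes (68.4%), and 15.5% of all genes had their highest mean at that time. Of the 27 subunits of the core and cap, 21 rose at 24 h, where 26.8% of all genes were called higher. The median log2 change of the 27 was 0.63. The median of these 27 in a library, taken relative to the mean of the controls, lay between -0.30 and 0.24 in the 9 controls and between 0.52 and 0.81 in the 4 libraries of 24 h. No 24 h library overlapped the controls on this measure. The 24 h libraries came from 3 of the library sets. In each of those sets the 24 h libraries were above every other library. The values were 0.52 against -0.08 to 0.47 in the set with low NDUFAF8. They were 0.78 and 0.81 against 0.08 for the 4 h library in the set with large totals. Neither of these sets holds a control, so there the 24 h libraries were compared with injured muscle only. In the set that holds the 48 h libraries and 3 controls it was 0.62 against -0.19 to 0.48. Scaling by column totals instead of TMM raised the median of all genes by 0.48 at 24 h, and 37 of 38 members were then called higher, with 4538 genes called higher and 1178 lower overall in place of 2521 and 2550. The same scaling gave 3645 genes higher and 1355 lower at 16 h, 3620 and 1456 at 20 h, and 3050 and 298 at 48 h.

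**Figure D1:**
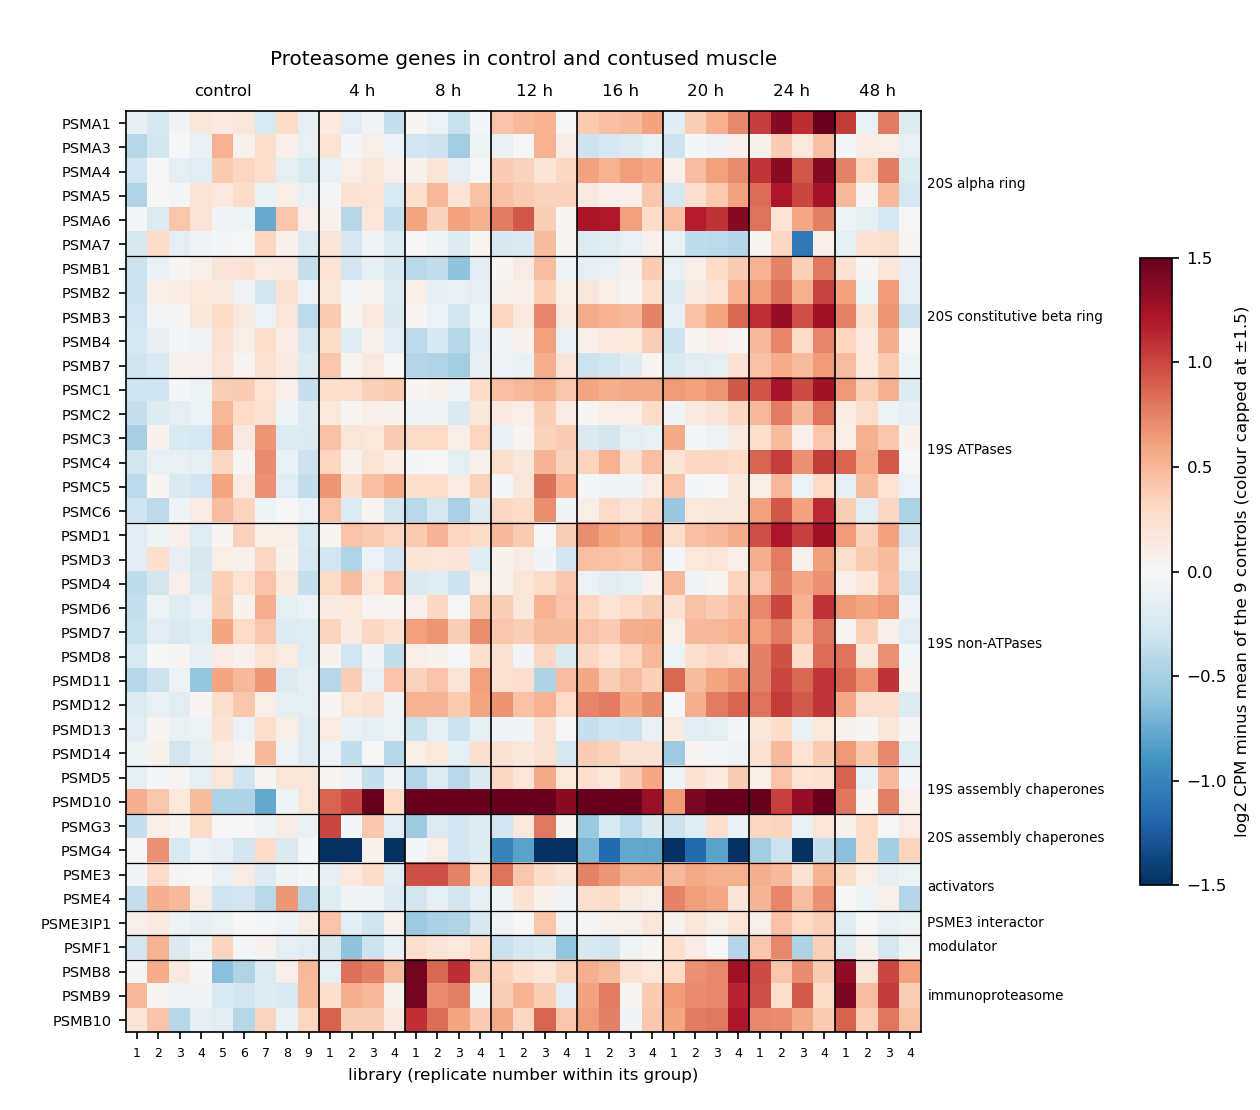
Log2 CPM of the 38 proteasome genes (y axis, by class) in each of the 37 libraries (x axis, by group and replicate), as the difference from the mean of the 9 controls, with colours capped at 1.5 in each direction. The 24 h columns are raised across the alpha, beta and cap genes, PSMD10 is raised from 8 to 24 h, and PSMG4 is lowest in libraries of 4, 12, 20 and 24 h.

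**Figure D2:**
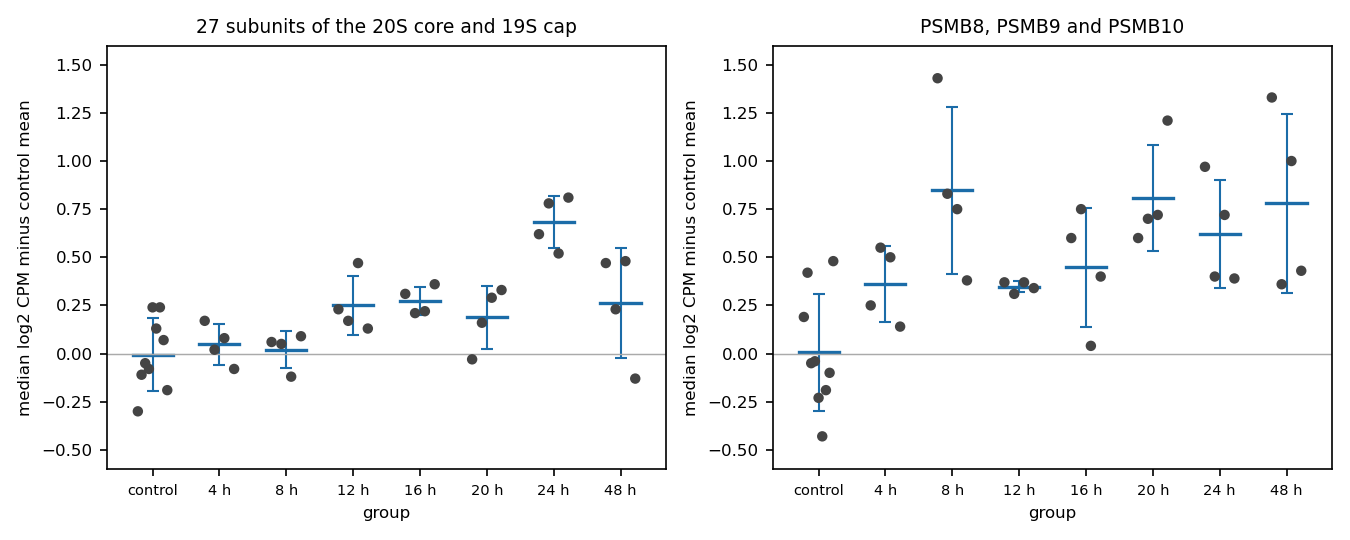
Median over the 27 core and cap subunits (left) and over PSMB8, PSMB9 and PSMB10 (right) of log2 CPM minus the control mean (y axes) by group (x axes), with a point for each library and bars for the mean ± SD. The 24 h libraries lie between 0.52 and 0.81 on the left, above all controls, while on the right the 8, 20 and 48 h groups reach 1.43, 1.21 and 1.33.

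In the alpha ring, PSMA1, PSMA4 and PSMA5 more than doubled at 24 h. PSMA1 (chromosome 2, 44740102 to 44755296 in Sscrofa11.1, the span of the whole gene) had 82.7 to 119 CPM in the controls, with a median of 95.2, and 201, 252, 211 and 278 CPM in the 24 h libraries. The lowest 24 h library was thus well above the highest control, and the rise was 1.25 ± 0.17 on the log2 scale (SE, edgeR adjusted p = 4.98e-07). PSMA4 (chromosome 7, 47440576 to 47448599) ran from 76.6 to 123 CPM in the controls (median 85.2) and measured 197, 238, 178 and 242 CPM at 24 h, a log2 rise of 1.17 ± 0.14 (edgeR adjusted p = 9.16e-08). PSMA4 was already higher at 16 h, with 142, 134, 144 and 140 CPM, all above the controls (log2 change 0.56 ± 0.14, edgeR adjusted p = 0.0015). PSMA5 (chromosome 4, 110695429 to 110717308) had 62.9 to 104 CPM in the controls (median 85.7) and 154, 200, 173 and 204 CPM at 24 h, with no overlap (1.07 ± 0.14, edgeR adjusted p = 2.67e-07).

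The alpha ring did not move as a block. PSMA6, at 4.28 to 9.67 CPM in the controls, rose at 5 times from 8 to 24 h and was highest at 20 h, with 9.88, 16.4, 15.4 and 18.6 CPM (log2 change 1.02 ± 0.19, edgeR adjusted p = 5.42e-05) and all 4 libraries above the controls. Its 12 h call was lost with the library set as a term (0.56, edgeR adjusted p = 0.0622), and those at 8 h (0.42, edgeR adjusted p = 0.148) and 12 h (0.54, edgeR adjusted p = 0.0928) when scaled by column totals. PSMA3 passed at no time against the controls and had a log2 change of 0.25 ± 0.13 at 24 h. PSMA7, which had the largest p of the ring (edgeR adjusted p = 0.528 over the 7 times), measured 253, 304, 117 and 263 CPM at 24 h against 208 to 307 CPM in the controls. Its 24 h replicate 3, of the set with low NDUFAF8, was the lowest of all libraries and the other 3 lay within the control range. The spans of PSMA3 and PSMA7 overlap those of LOC102165044 and LSM14B, and reads of overlapping genes cannot be told apart without a stated strand setting.

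All 5 constitutive beta genes rose at 24 h, with no overlap with the controls in any of them. Of all genes, 26.8% were called higher at that time and 16.4% had every 24 h library above every control. PSMB3, a structural beta subunit (chromosome 12, 23347060 to 23357616), rose most. It had 61.3 to 98.5 CPM in the controls (median 82.3) and 173, 202, 158 and 195 CPM at 24 h, a log2 rise of 1.15 ± 0.16 (edgeR adjusted p = 7.35e-07). At 16 h PSMB3 was at 119, 116, 114 and 136 CPM, again above all controls (0.57 ± 0.16, edgeR adjusted p = 0.00366). PSMB2, PSMB1, PSMB4 and PSMB7 rose by 0.75, 0.60, 0.56 and 0.52 at 24 h. PSMB7 carries the trypsin-like site, for which PSMB10 is the inducible replacement. It had 107 to 154 CPM in the controls (median 138) and 179, 193, 183 and 205 CPM at 24 h (0.52 ± 0.13, edgeR adjusted p = 0.000908). With the library set as a term in the fit, the 24 h changes of PSMB7 (0.26, edgeR adjusted p = 0.156) and PSMB4 (0.39, edgeR adjusted p = 0.079) no longer passed. Without the 3 libraries above 20 M, those of PSMB1 (0.42, edgeR adjusted p = 0.0536) and PSMB4 (0.37, edgeR adjusted p = 0.0875) did not pass.

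At 8 h 2 of these beta genes were lower than in the controls, where 28.2% of all genes were called lower. PSMB7 measured 96.7, 96.2, 91.5 and 121 CPM, with 3 libraries below every control (log2 change -0.39 ± 0.13, edgeR adjusted p = 0.0136). PSMB1 measured 106, 110, 93.1 and 127 CPM against 111 to 165 CPM in the controls, also with 3 libraries below all controls (-0.39 ± 0.14, edgeR adjusted p = 0.0162). In both genes the library within the control range was replicate 4, which belongs to another library set than the other 3. With the library set as a term these changes were -0.20 for PSMB7 (edgeR adjusted p = 0.235) and -0.23 for PSMB1 (edgeR adjusted p = 0.244), so neither passed.

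In the cap, 4 of 6 ATPases and 8 of 10 other subunits rose at 24 h, where 53.9% of all genes were called and 26.8% were higher. PSMC1 (chromosome 7, 112027904 to 112041360, overlapping the span of NRDE2) had 93.2 to 154 CPM in the controls (median 117). Its libraries measured 161, 165, 171 and 158 CPM at 12 h, 178, 172, 175 and 175 CPM at 16 h, 184, 180, 186 and 225 CPM at 20 h, and 227, 277, 232 and 282 CPM at 24 h. At each of these 4 times every library was above every control, and the log2 change was 0.45, 0.54, 0.69 and 1.08 (SE 0.13 each, edgeR adjusted p = 8.14e-08 at 24 h). The 12 h change did not pass with the library set as a term (0.33, edgeR adjusted p = 0.1). PSMC4 rose by 0.89 ± 0.14 at 24 h, with 213, 240, 187 and 241 CPM against 93.6 to 191 CPM in the controls and 3 of 4 libraries above all of them. PSMC6 rose by 0.81 ± 0.17, with 227, 283, 225 and 322 CPM against 113 to 204 CPM and no overlap, and PSMC2 by 0.63 ± 0.12. PSMC3 and PSMC5 passed at no time. PSMC5 had the largest p of the ATPases over the 7 times (edgeR adjusted p = 0.217), and its controls spread from 160 to 337 CPM, a range that held all 4 libraries of 24 h (223, 295, 197 and 257 CPM).

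PSMD1, the scaffold subunit of the cap base (chromosome 15, 131807594 to 131912194, overlapping HTR2B), rose by 1.11 ± 0.12 at 24 h (edgeR adjusted p = 3.26e-08). Its controls ran from 116 to 173 CPM (median 139), and its libraries measured 220, 204, 196 and 216 CPM at 16 h and 265, 314, 276 and 329 CPM at 24 h, without overlap at either time. PSMD12, of the cap lid, was called at 5 times from 8 to 24 h. It had 108 to 165 CPM in the controls (median 116), 180, 178, 164 and 189 CPM at 8 h, and 219, 258, 237 and 263 CPM at 24 h (0.95 ± 0.13, edgeR adjusted p = 7.46e-07). PSMD8, another lid subunit, measured 210, 241, 151 and 222 CPM at 24 h against 106 to 143 CPM, with its replicate 3 nearest to the controls (0.72 ± 0.13, edgeR adjusted p = 3.91e-05). PSMD11, PSMD6, PSMD7, PSMD4 (a ubiquitin receptor) and PSMD3 rose by 0.86, 0.82, 0.63, 0.59 and 0.51 at that time, of which the call of PSMD4 was lost with the library set as a term (0.31, edgeR adjusted p = 0.126).

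PSMD14, the deubiquitinase of the lid, and PSMD13 were the cap subunits outside the ATPases that did not pass at 24 h. PSMD14 had a log2 change of 0.32 ± 0.14 at 24 h (edgeR adjusted p = 0.0541) and 0.42 ± 0.14 at 48 h (edgeR adjusted p = 0.0282). The latter did not pass with the library set as a term (0.33, edgeR adjusted p = 0.177) or without 48 h replicate 1. PSMD13, which had the largest p of these 10 genes over the 7 times, was the only one of them lower at any time. It was called lower at 8 h (log2 change -0.24 ± 0.10, edgeR adjusted p = 0.0424) and at 16 h. It fell by 0.28 ± 0.10 at 16 h on the log2 scale (edgeR adjusted p = 0.0197), with 120, 124, 122 and 141 CPM against 135 to 183 CPM in the controls, so that 3 libraries were below every control. Scaled by column totals, which shifted the median of all genes by 0.35 at 16 h, the change turned to 0.09 (edgeR adjusted p = 0.526). Its call at 16 h was also lost without replicate 1, 2 or 3 of that time (edgeR adjusted p of 0.0682, 0.0684 and 0.0567).

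Of the 38 genes, 15 had every 24 h library above every control, a share to be read against 16.4% of all genes. Besides PSMD10 they were 14 core and cap subunits: PSMA1, PSMA4, PSMA5, all 5 constitutive beta genes, PSMC1, PSMC6, PSMD1, PSMD8, PSMD11 and PSMD12. At 12 h 3 did so (6.04% of all genes), at 16 h 9 (17.2%), at 20 h 6 (14.2%), at 8 h only PSMD10 (13.8%), and none at 4 h (2.28%) or 48 h (1.41%). Fewer were wholly below the controls: PSME3IP1 at 8 h (12.2% of all genes), and PSMG4 at 12 h (4.46%), 16 h (15.9%), 20 h (11.8%) and 24 h (14.7%), with none at 4 h (2.44%) or 48 h (0.818%). The number of libraries limits the precision: with 4 libraries at a time the SE of a core or cap change at 24 h ran from 0.10 to 0.20.

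At 48 h the core and cap genes were lower than at 24 h. Compared directly, 18 of the 38 genes were called between 48 and 24 h and all 18 were lower at 48 h, where 19.5% of all genes were called, 10.2% higher and 9.22% lower. The median log2 difference over the 38 was -0.38, against 0.04 over all genes. Among the 27 core and cap subunits 14 were lower, with PSMA5 (-0.87 ± 0.17, edgeR adjusted p = 0.000623), PSMA1 (-0.78), PSMB3 (-0.78), PSMC6 (-0.78), PSMD1 (-0.75), PSMA4 (-0.74) and PSMC1 (-0.74) among them. PSME4 and PSME3 were lower by -0.70 and -0.40, and PSMD10 by -0.96. The count was 3 of 38 with the library set as a term and 3 without the 3 libraries above 20 M, 2 of which are from 24 h. It was 10 without 24 h replicate 4 and 9 without 48 h replicate 4.

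The 48 h libraries differed among themselves. PSMA1 measured 203, 90.6, 168 and 85.5 CPM in replicates 1 to 4, so replicates 1 and 3 were above all controls and replicates 2 and 4 within their range. The median of the 27 core and cap genes was 0.47, 0.23, 0.48 and -0.13 in the same libraries. Summed pan-leukocyte markers were highest in replicates 1 and 3, and measured 97.3, 391 and 76.2 CPM in replicates 2 to 4. Muscle fibre markers summed lowest in the same 2 libraries, with 89172, 34674 and 70255 CPM in replicates 2 to 4. Leukocyte sums did not follow the core and cap median in every group. At 20 h replicate 4 was highest on both (471 CPM and 0.33). At 24 h the highest sum (455 CPM, replicate 3) went with the lowest median (0.52). The part of leukocytes or of muscle fibres in the result was not tested. Against the controls 11 of 38 genes were called at 48 h, all higher (20.3% of all genes called, 12.8% higher and 7.45% lower), of which 8 were core and cap subunits, such as PSMD11 (0.65 ± 0.20) and PSMC4 (0.60 ± 0.15). This count rested on single libraries: it was 0 without replicate 1 (with 8 genes at an unadjusted p under 0.05), 2 without replicate 3 and 17 without replicate 4 (edgeR in each). With the library set as a term it was 2, and PSMC4 (0.47, edgeR adjusted p = 0.0773) and PSMD11 (0.46, edgeR adjusted p = 0.2) were among those lost.

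**Figure D3:**
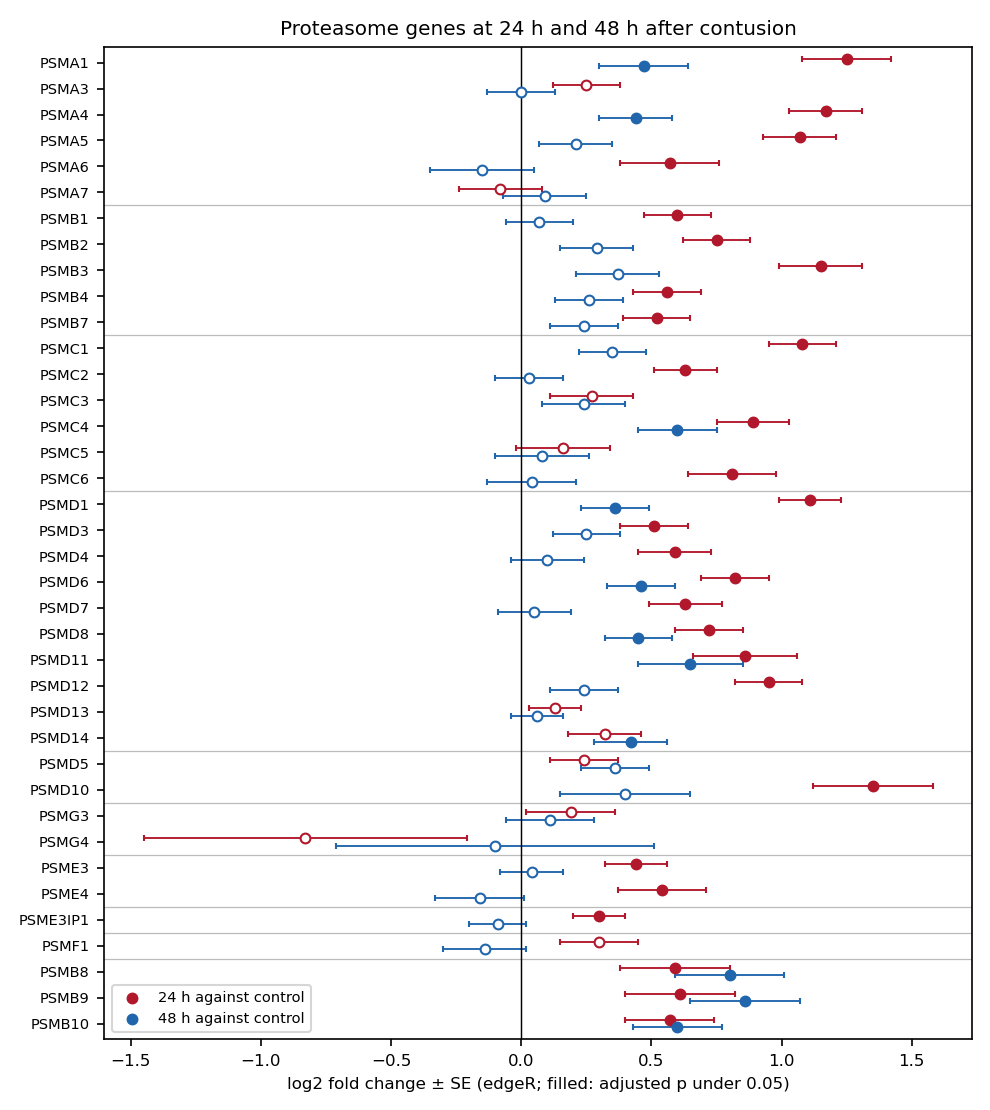
Log2 fold change against the 9 controls (x axis, ± SE) of each of the 38 proteasome genes (y axis, by class) at 24 h (red) and 48 h (blue), filled where the adjusted p was under 0.05. PSMA1, PSMA4, PSMA5, PSMB3, PSMC1, PSMD1 and PSMD10 passed 1 at 24 h, while PSMB8, PSMB9 and PSMB10 are filled at both times.

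The 3 immunoproteasome genes were all called higher at 8, 20, 24 and 48 h, with a median log2 change of 0.77, 0.78, 0.59 and 0.80 at these times. Of all genes, 25.8%, 25.4%, 26.8% and 12.8% were called higher at the same times. PSMB8 (chromosome 7, 25058456 to 25061666) encodes the inducible chymotrypsin-like subunit. It had 10.5 to 23.7 CPM in the controls (median 16.4) and 43.8, 29.3, 34.7 and 21 CPM at 8 h (log2 change 0.95 ± 0.21, edgeR adjusted p = 0.000318). At 48 h it was at 40.6, 18.4, 32.3 and 24.7 CPM (0.80 ± 0.21, edgeR adjusted p = 0.00695). At both times 3 of 4 libraries were above all controls and 1 was within their range.

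PSMB9, its neighbour within the major histocompatibility complex (chromosome 7, 25072133 to 25077508), had 5.47 to 9.35 CPM in the controls (median 6.39). It measured 17.9, 10.8, 11.2 and 6.51 CPM at 8 h (0.77 ± 0.21, edgeR adjusted p = 0.00294), 10.3, 10.8, 10.9 and 14.6 CPM at 20 h (0.78 ± 0.21, edgeR adjusted p = 0.00272), and 17.7, 9.17, 13.7 and 8.59 CPM at 48 h (0.86 ± 0.21, edgeR adjusted p = 0.00455). Only at 20 h were all 4 libraries above all controls. Without 48 h replicate 1 none of the 3 immunoproteasome genes passed at 48 h, and the change of PSMB9 was then 0.63 (edgeR adjusted p = 0.109).

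PSMB10 (chromosome 6, 28544910 to 28547609) was called at the 6 times from 8 to 48 h. Its controls lay between 9.95 and 18 CPM (median 12.5), and its libraries measured 28.6, 24, 20.2 and 17.5 CPM at 8 h, 20.3, 23.1, 23.3 and 31 CPM at 20 h, and 24.8, 17.2, 23.5 and 18.2 CPM at 48 h. The largest change was 0.83 ± 0.17 at 20 h (edgeR adjusted p = 0.000176), where no library overlapped the controls. The log2 ratio of PSMB10 to PSMB7, the pair that fill the same position in the core, ran from -3.79 to -2.64 in the controls with a median of -3.49. It was between -2.78 and -1.76 at 8 h, and between -2.46 and -2.30 at 20 h with no overlap with the controls. At 24 h, when PSMB7 was at its highest, the ratio was between -3.54 and -3.01. The ranges at 4 h (-3.15 to -2.83), 12 h (-3.07 to -2.64), 16 h (-3.15 to -2.27) and 48 h (-3.08 to -2.79) overlapped that of the controls.

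Leukocyte markers moved with these genes within the 4, 8, 16, 20 and 48 h groups, but not within the 12 h group. The pan-leukocyte sum was 678, 517, 285 and 97.9 CPM in 8 h replicates 1 to 4, and the median immunoproteasome change in these libraries was 1.43, 0.83, 0.75 and 0.38, so replicate 1 was highest and replicate 4 lowest on both. At 48 h replicates 1 and 3 were the high libraries on both measures. Sums of 67.7, 89.3, 80.4 and 51.8 CPM at 4 h, within the control range, went with medians of 0.25, 0.55, 0.50 and 0.14. Those of 378, 407, 157 and 164 CPM at 16 h went with 0.60, 0.75, 0.04 and 0.40. The 20 h sums were 206, 245, 245 and 471 CPM and the medians 0.60, 0.70, 0.72 and 1.21. At 24 h the sums were 285, 147, 455 and 167 CPM and the immunoproteasome medians 0.97, 0.40, 0.72 and 0.39. Replicate 3 thus had the highest sum and replicate 1 the highest median. At 12 h the sums were 355, 142, 97.2 and 82.3 CPM, while the medians were 0.37, 0.31, 0.37 and 0.34. Monocyte and macrophage markers (17 of 17 measured) summed to 115 to 310 CPM in the controls and 255 to 1421 CPM at 48 h, neutrophil markers (9 of 14) to 10.7 to 27.3 CPM in the controls and 33.1 to 421 CPM at 8 h. Of 20 lymphocyte markers only NKG7 was measured. The part of these cells in the immunoproteasome values was not tested.

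The controls were also unequal. Control replicates 1, 2 and 9 had immunoproteasome medians of 0.19, 0.42 and 0.48, and the other 6 lay between -0.43 and -0.04. Replicates 1 and 2 share a library set with 8 h replicates 1 to 3 and with all 16 h libraries. Within that set the 8 h libraries were above both controls (0.75 to 1.43). The 8 h replicate 4, at 0.38, shares its set with control replicates 6, 7 and 9. It was above replicates 6 and 7 (-0.43 and -0.19) and below replicate 9 (0.48). With the library set as a term, PSMB8 kept its call at 8 h, while PSMB9 (0.42, edgeR adjusted p = 0.192) and PSMB10 (0.44, edgeR adjusted p = 0.0752) did not. In the same fit PSMB10 also did not pass at 16 h (0.10, edgeR adjusted p = 0.776) or at 48 h (0.56, edgeR adjusted p = 0.0561). Without the 8 libraries of the low NDUFAF8 set, PSMB10 did not pass at 12 h (0.41, edgeR adjusted p = 0.162), nor PSMB9 at 20 h (0.68, edgeR adjusted p = 0.0553) or 24 h (0.50, edgeR adjusted p = 0.0873). Between 48 and 24 h 0 of the 3 genes were called by edgeR, with 0 at an unadjusted p under 0.05 and 0 by DESeq2 or limma-voom. Their differences of 0.21 ± 0.25, 0.25 ± 0.25 and 0.04 ± 0.20 for PSMB8, PSMB9 and PSMB10 do not show that they stayed the same.

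**Figure D4:**
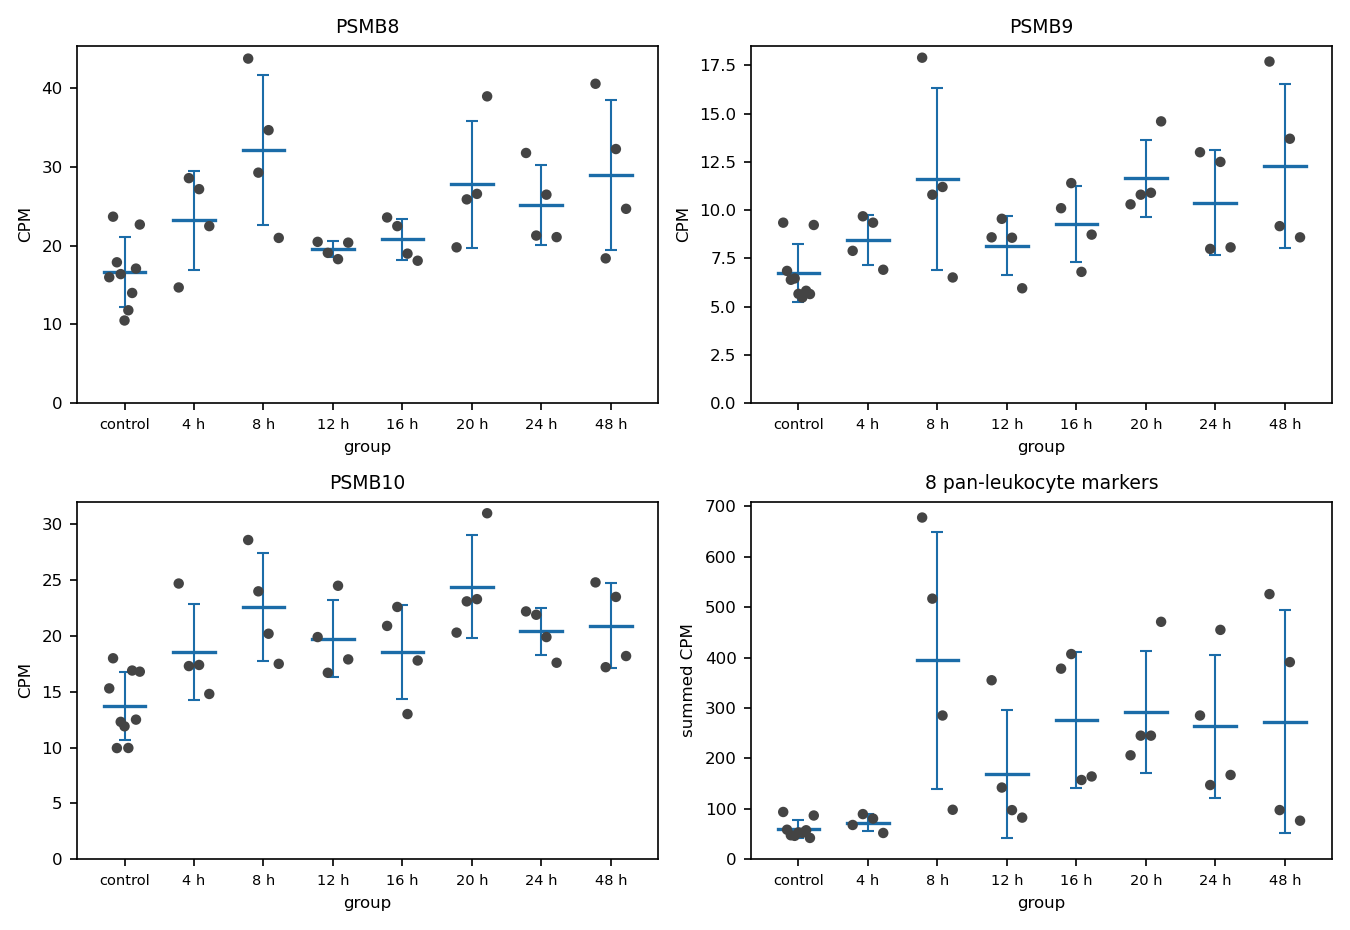
CPM of PSMB8, PSMB9 and PSMB10 and the summed CPM of 8 pan-leukocyte markers (y axes) by group (x axes), with a point for each library, in replicate order from left to right, and bars for the mean ± SD. The 8 h group is wide in all 4 panels, and the 48 h group in those of PSMB8, PSMB9 and the leukocyte markers. Replicate 1 is the highest library of its group at both times.

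Among the activators, PSME3, which forms the nuclear 11S activator, rose early. It had 38.6 to 53.9 CPM in the controls (median 43.8) and 40.7, 49.5, 53.4 and 39.6 CPM at 4 h, all within that range. At 8 h it measured 86.1, 86.6, 74 and 53.9 CPM (log2 change 0.76 ± 0.12, edgeR adjusted p = 3.42e-06), and the difference from 4 h passed by itself (0.71 ± 0.14, edgeR adjusted p = 0.000848). PSME3 stayed called through 24 h, with no overlap with the controls at 16 h (74.4, 70.3, 64.3 and 64.4 CPM) and 20 h (62.5, 65.7, 64.3 and 64 CPM), and at 48 h it was at 53.6, 47.3, 40.6 and 41.9 CPM (0.04 ± 0.12). The step from 4 to 8 h mixes library sets, and with the set as a term it was 0.31 (edgeR adjusted p = 0.656).

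PSME4, the large single-chain activator PA200, was called only at 20 h (0.49 ± 0.17, edgeR adjusted p = 0.0144) and 24 h (0.54 ± 0.17, edgeR adjusted p = 0.0068). Its controls spread from 231 to 495 CPM (median 257), and the 24 h libraries measured 448, 520, 434 and 503 CPM, with 2 above all controls. The 20 h change did not pass with the library set as a term (0.39, edgeR adjusted p = 0.0874), and without the 3 libraries above 20 M the 24 h change was 0.43 and did not pass (edgeR adjusted p = 0.107). PSMF1, known as PI31, was called at no time against the controls. It measured 75.7, 94.1, 41.4 and 73 CPM at 24 h against 47.1 to 81.9 CPM, with 1 library above and 1 below all controls. PSME3IP1 fell by 0.43 ± 0.11 at 8 h on the log2 scale (edgeR adjusted p = 0.0013), with 25.9, 27, 27.5 and 31.8 CPM all below the controls (34.7 to 41.8 CPM), and rose by 0.30 ± 0.10 at 24 h (edgeR adjusted p = 0.015). The library set as a term ended the 24 h call (0.22, edgeR adjusted p = 0.222), as did leaving out the 3 libraries above 20 M (0.19, edgeR adjusted p = 0.249).

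PSMD10, also called gankyrin, is a chaperone that holds the ATPase PSMC4 during cap assembly (chromosome X, 88540261 to 88548593, overlapping ATG4A). It was the only member called at 4 h, and its log2 changes of 1.68 at 8 h and 1.70 at 16 h were the largest rises of the 38. Its controls lay between 2.2 and 5.5 CPM (median 4.19). It measured 6.86, 7.44, 13.6 and 4.61 CPM at 4 h (1.05 ± 0.24, edgeR adjusted p = 0.00331), with 3 libraries above all controls. At 8 h it measured 14.6, 14.1, 11.3 and 10.7 CPM (1.68 ± 0.24, edgeR adjusted p = 8.34e-07), and from 8 to 24 h no library overlapped the controls. At 48 h it was at 6.56, 3.85, 6.33 and 3.96 CPM (0.40 ± 0.25, edgeR adjusted p = 0.268). With the library set as a term the 4 h change was 1.15 with an edgeR adjusted p of 0.0518. PSMD5, the chaperone of the ATPase PSMC2, was higher only at 16 h (0.35 ± 0.13, edgeR adjusted p = 0.03), with 31, 29.4, 34.1 and 39 CPM against 21.2 to 29.7 CPM and 3 libraries above all controls. This call was lost with the library set as a term (0.46, edgeR adjusted p = 0.0669).

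PSMG3 and PSMG4 form a pair that helps the alpha ring to assemble. PSMG3 was called at no time against the controls, and its 24 h libraries measured 13, 13.1, 9.65 and 11.8 CPM against 8.17 to 12.5 CPM. PSMG4 (chromosome 7, 1980295 to 1987946) differed between library sets as well as between times. In the 8 libraries with low NDUFAF8 it measured 0.0715 to 3.73 CPM, and in the other 29 it measured 8.23 to 29.9 CPM. NDUFAF8 itself was at 0.286 to 2.27 CPM in the former and 8.8 to 46.6 CPM in the latter. The controls, none of them in that set, had 15.3 to 29.9 CPM of PSMG4 (median 17.5).

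The other sets also held low values of PSMG4. At 16 h, with no library of the low NDUFAF8 set, it measured 11.5, 8.25, 10.9 and 10.8 CPM, below all 9 controls. The 12 h replicates 1 and 2 (9.27 and 10.6 CPM) and 20 h replicates 2 and 3 (8.23 and 10.6 CPM) were below all controls as well. With all 37 libraries, PSMG4 was called only at 20 h, where it fell by 1.68 ± 0.67 on the log2 scale (edgeR adjusted p = 0.0353), and this call was lost without 20 h replicate 1 (edgeR adjusted p = 0.088), without 20 h replicate 4 (0.13 by the same test), without control replicate 2 (0.0526) and with the library set as a term (0.393). The fit with that term called PSMG4 lower at 16 h (-1.22, edgeR adjusted p = 0.0196) and at 24 h (-1.39, edgeR adjusted p = 0.00892). Without the 8 libraries of the low NDUFAF8 set, PSMG4 was lower at 12 h (-0.93, edgeR adjusted p = 0.00979) and at 16 h (-0.87, edgeR adjusted p = 0.000397).

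**Figure D5:**
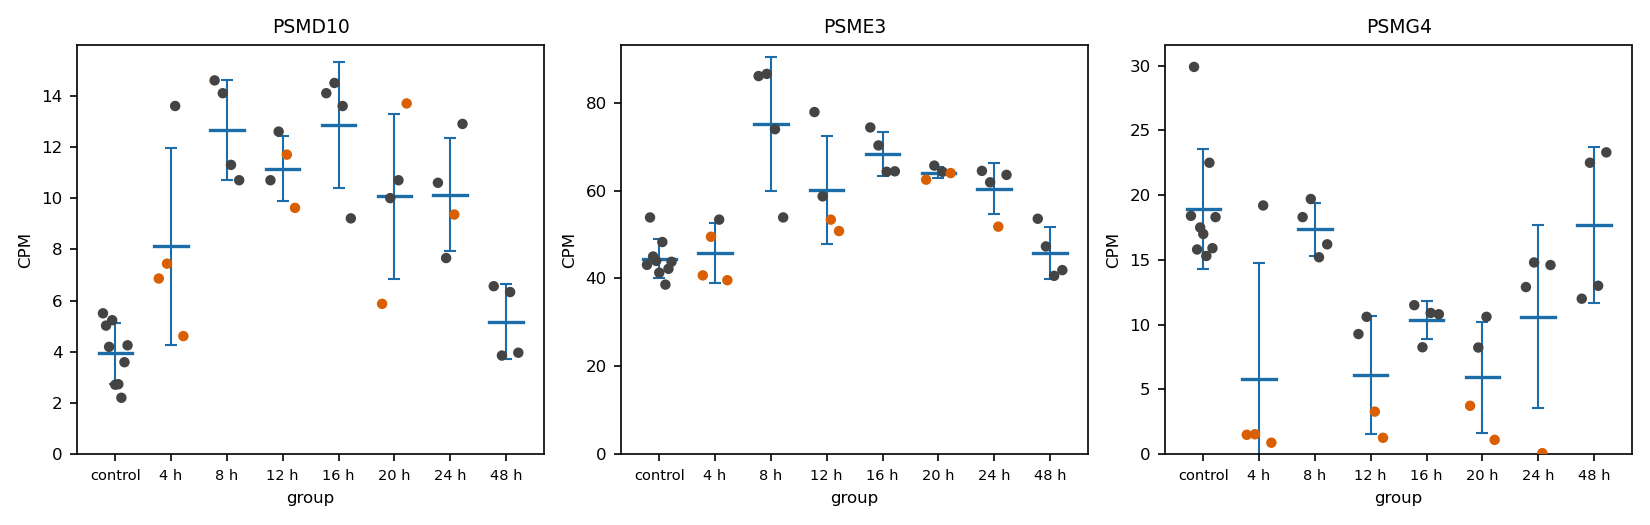
CPM of PSMD10, PSME3 and PSMG4 (y axes, from 0) by group (x axes), with a point for each library, orange for the 8 libraries with low NDUFAF8, and bars for the mean ± SD, drawn from 0 up for PSMG4 at 4 h. PSMD10 and PSME3 rise by 8 h and are near the controls at 48 h, and the orange points of PSMG4 lie at 3.73 CPM or less.

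Between 16 and 8 h, 6 of the 38 genes were called, all higher at 16 h (15.1% of all genes called, 7.36% higher and 7.69% lower). They were PSMB3 (0.69 ± 0.19), PSMD5 (0.66 ± 0.16), PSMA4 (0.54 ± 0.17), PSMB4 (0.50 ± 0.16), PSME3IP1 (0.50 ± 0.13) and PSMC1 (0.49 ± 0.16). The count fell to 2 without 16 h replicate 4 and to 3 without 8 h replicate 1, 8 h replicate 3 or 16 h replicate 3. Between 8 and 4 h 8 genes were called, 4 higher and 4 lower (31.3% of all genes called, 16% higher and 15.4% lower), with PSME3 and PSMA6 among the higher and PSMB7 and PSMD4 among the lower. That count was 2, both higher, when scaled by column totals, 3 without 8 h replicate 1, 4 without 4 h replicate 1 or 2, and 5 without 4 h replicate 4, 8 h replicate 2 or 8 h replicate 3. Without the 8 libraries of the low NDUFAF8 set the 4 h group is 1 library, assumed to vary like the other groups, and 0 genes were called by edgeR, with 4 at an unadjusted p under 0.05.

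Genes that act with the proteasome were taken as 5 lists. Of 20 measured cofactors and receptors, 8 were called at 24 h, all higher (53.9% of all genes called, 26.8% higher), with a list median of 0.19 (-0.02 over all genes). ZFAND2A, a stress-induced proteasome-binding protein, had the largest change, from 5.99 CPM in the controls to 103 ± 16.1 CPM at 24 h (SD, n = 4; log2 change 4.10, edgeR adjusted p = 1.45e-07), and was back at 9.96 ± 6.58 CPM at 48 h. ZFAND5, which activates the proteasome in wasting muscle, peaked at 16 h at 1854 ± 415 CPM against 800 CPM in the controls (1.21, edgeR adjusted p = 1.77e-06). UBQLN1, a shuttle for ubiquitinated proteins, rose by 1.07 at 24 h, and NPLOC4, a cofactor of the segregase VCP, by 0.90.

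Of 17 measured regulators of proteasome genes, 9 were called at 16 h, all higher (53.1% of all genes called, 25.3% higher), with a list median of 0.58 against -0.04 over all genes. At 24 h 8 were called, 6 of them higher (53.9% of all genes called), with a list median of 0.19. NFE2L1, the transcription factor that restores proteasome genes when proteasomes are blocked, was at 492 CPM in the controls. It rose to 811 ± 94.7 CPM at 16 h, 817 ± 49 CPM at 20 h and 884 ± 122 CPM at 24 h (SD, n = 4; 0.84, edgeR adjusted p = 2.87e-05) and measured 516 ± 78.8 CPM at 48 h. SQSTM1, the autophagy receptor, rose by 2.12 at 16 h and at 24 h, and MAFG, a partner of NFE2L1, by 1.69 at 16 h. STAT3 was higher from 4 to 24 h (1.53 at 4 h, 2.95 at 8 h) and not called at 48 h (0.32).

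Ubiquitin, its enzymes and the muscle ligases made up the next lists. Of 14 measured genes for ubiquitin and its activating and conjugating enzymes 8 were called at 24 h, all higher, where 53.9% of all genes were called and 26.8% were higher. The polyubiquitin gene UBB went from 713 CPM in the controls to 3014 ± 902 CPM at 24 h (2.08, edgeR adjusted p = 1.93e-07) and 532 ± 232 CPM at 48 h. Of 19 measured muscle ligases 11 were called at 24 h, 6 higher and 5 lower, shares near the 26.8% and 27.1% of all genes. TRIM63 rose from 436 CPM to 4518 ± 1151 CPM at 16 h (3.37, edgeR adjusted p = 1.42e-09) and was still higher at 48 h (0.98, edgeR adjusted p = 0.0245). FBXO32 was highest at 20 h, at 1740 ± 453 CPM against 319 CPM (2.45, edgeR adjusted p = 3.19e-08). TRIM63 passed at 4 h (1.03, edgeR adjusted p = 0.0211), when 0 of the 27 core and cap genes did by edgeR (5 at an unadjusted p under 0.05, 0 by DESeq2 and 0 by limma-voom). Of all genes, 18.3% were called at 4 h.

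In the list of class I antigen processing and interferon regulators, 18 of 28 genes were measured. At 8 h 13 were called, 11 of them higher (54% of all genes called, 25.8% higher), with a list median of 0.70. At 48 h 9 were called, all higher (20.3% of all genes called, 12.8% higher), with a list median of 0.53. TAP1, the peptide transporter gene, rose from 22.6 CPM to 58.3 ± 16.2 CPM at 8 h (1.37, edgeR adjusted p = 3.57e-07) and 62.3 ± 5.06 CPM at 20 h (1.46), and was at 42 ± 7.6 CPM at 48 h (0.89, edgeR adjusted p = 0.000905). The leukocyte sums given above rose in the same groups, and their part in this list was not tested.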

How the data were processed

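The authors deposited raw counts per gene, 9418 rows for 37 columns, each named like the title of its sample. The submitters' processing notes name HISAT2 2.2.1 and HTSeq with the build Sscrofa11.1, and Trimmomatic, FastQC and MultiQC; the annotation release and the strand setting are not stated in these sources. No row has a maximum under 101 counts, so the rows were selected and column totals are not the full depth. A floor of 3 counts stood at 0.108 to 0.378 CPM, for counting error only.

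Robust quasi-likelihood models of edgeR 4.0.16 (R 4.3.3, limma 3.58.1), with TMM scaling and filterByExpr, were fitted to all 37 libraries with the group as factor. Benjamini-Hochberg adjustment ran over the 9411 genes tested, with calls at adjusted p under 0.05 and log2 changes given ± SE. The fits were tested on simulated counts. Members and lists were chosen with earlier results of these data known. The rule for named genes took the immunoproteasome, PSMB7, the activators, PSMF1 and, in each other class, the 3 genes with the smallest p and the 1 with the largest p over the 7 times, and up to 4 genes a list by smallest p. Within groups no libraries were as alike as sampling noise (lowest chi-square per degree of freedom 16.1 over 78 pairs). Alternatives were other scalings, other filters on low counts, DESeq2 1.42.0, limma-voom, a replicate block, a term for the library set, only the groups compared, and leaving out each library; leaving out the low NDUFAF8 set or the libraries above 20 M was chosen after seeing the data. Library sets were split in turn by totals above 20 M, C1QBP (threshold 8 CPM), NDUFAF8 (threshold 4 CPM) and ND6 (threshold 32 CPM). Gene spans came from RefSeq's Sscrofa11.1 table, which held 37 of the 38 symbols; 8 spans overlap another gene.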

Additional observations from a re-analysis of the deposited data

Results flagged for a closer look

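Of 304 sets of libraries (38 genes in 8 groups), 19 held a library whose distance to its nearest neighbour took up most of the group's range; chance alone gives this in about 1 of 20 such sets. At 20 h replicate 1 was low in PSMC6 (99.9 CPM, the next library at 165), PSMC4 (133 CPM), PSMD7 (168 CPM) and PSMD8 (117 CPM) and high in PSMA7 (228 CPM), and replicate 4 was high in PSMC1 (225 CPM) and PSMB9 (14.6 CPM). At 12 h replicate 3 was high in PSMB2 (101 CPM) and PSME3IP1 (50.3 CPM), and replicate 4 low in PSMD14 (60.1 CPM). At 8 h PSMB2 was high in replicate 1 (83.6 CPM), PSMC3 low in replicate 3 (258 CPM) and PSMD3 low in replicate 4 (207 CPM). PSMC5 was high in 16 h replicate 4 (229 CPM), PSMD6 low in 48 h replicate 4 (55.3 CPM, the next at 86.6), PSMD14 high in control replicate 7 (101 CPM) and PSMG4 high in control replicate 2 (29.9 CPM). PSMG4 was also high in 4 h replicate 3 (19.2 CPM, the other 3 at 1.53 CPM or less) and low in 24 h replicate 3 (0.0715 CPM, the next at 12.9).

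Times differed by edgeR's test of the difference itself, in log2, for the following genes. From 4 to 8 h PSME3 (0.71), PSMA6 (0.62), PSMF1 (0.54) and PSMD12 (0.41) were higher, and PSMG3 (-0.68), PSMB7 (-0.53), PSMD4 (-0.49) and PSME3IP1 (-0.46) lower; none of the 8 passed with the library set as a term. From 8 to 16 h PSMB3 (0.69), PSMD5 (0.66), PSMA4 (0.54), PSMB4 (0.50), PSME3IP1 (0.50) and PSMC1 (0.49) were higher. From 24 to 48 h 18 genes were lower: PSMD10 (-0.96), PSMA5 (-0.87), PSMA1 (-0.78), PSMB3 (-0.78), PSMC6 (-0.78), PSMD1 (-0.75), PSMA4 (-0.74), PSMC1 (-0.74), PSMA6 (-0.72), PSMD12 (-0.72), PSME4 (-0.70), PSMC2 (-0.60), PSMD7 (-0.58), PSMB1 (-0.53), PSMD4 (-0.49), PSMB2 (-0.46), PSME3 (-0.40) and PSME3IP1 (-0.40).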

How the results depend on the processing

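With the library set as a term the counts of called members were 0 at 4 h (5 at an unadjusted p under 0.05, edgeR). They were 9 at 8 h, 4 at 12 h, 10 after 20 h and 2 after 48 h, then 0 between 8 and 4 h (1 unadjusted) and 3 between 48 and 24 h. Scaling by column totals gave 2 at 4 h and 1 at 12 h, then 28 after 16 h, 29 after 20 h and 30 after 48 h, where it moved the median of all genes by 0.35, 0.33 and 0.36. It gave 2 between 8 and 4 h and 24 between 16 and 8 h, where the median moved by 0.42. Fitting only the groups compared gave 3 at 48 h, 5 between 8 and 4 h, 16 between 16 and 8 h and 5 between 48 and 24 h. DESeq2 called 2 at 4 h. Without the low NDUFAF8 set, which leaves 2 libraries at 12 h and 1 at 4 h, assumed to vary like the other groups, the counts were 5 at 12 h, 0 between 8 and 4 h (4 unadjusted) and 10 between 16 and 8 h, and without the libraries above 20 M 3 between 48 and 24 h. The causes of these differences were not tested.

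Leaving out each library in turn gave 1 to 3 calls at 4 h, 10 to 16 at 8 h and 3 to 10 at 12 h. It gave 12 to 19 calls at 16 h, 11 to 17 at 20 h, 25 to 30 at 24 h and 0 to 17 at 48 h. Over the 7 times together 32 to 35 were called, with 3 to 11 between 8 and 4 h, 2 to 7 between 16 and 8 h and 9 to 18 between 48 and 24 h. The lowest count at 12 h was without 12 h replicate 1, and without 12 h replicate 2 it was 5. The count at 24 h stayed within 1.5 times its value under every alternative run, but it was not fixed. Calls lost at 24 h with the library set as a term included PSMB4, PSMB7, PSMD4 and PSME3IP1. Without the libraries above 20 M they included PSMB1, PSMB4, PSME3IP1 and PSME4, while scaling by column totals raised the count to 37.

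Replicate numbers did not pair the libraries: 42 of 112 pairs with the same number and 114 of 336 with different numbers had deviations correlated above 0.1. A replicate block gave 5 calls at 4 h, none of them PSMD10, and 14, 11, 14, 17, 27 and 11 at the later times. For the 27 named genes, 619 of 648 values under alternatives kept direction and side of the threshold, 18 lost the call, 10 gained it and 1 reversed (PSMD13 at 16 h, 0.09 scaled by column totals). PSMG4 was at or under 3 counts in 1 library, 24 h replicate 3, where its level is not resolved at this depth.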

Other observations

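The heat shock list holds chaperones of misfolded proteins. Of its 12 measured genes 6 were called at 8 h, 5 of them higher (54% of all genes called, 25.8% higher), with a list median of 0.43 against -0.07 over all genes, and 5 were called at 24 h, 2 of them higher (53.9% of all genes called, list median 0.10). HSPA8, the constitutive cytosolic chaperone, rose from 1818 CPM in the controls to 5606 ± 1429 CPM at 8 h (SD, n = 4; log2 change 1.62, edgeR adjusted p = 4.21e-07) and measured 2102 ± 450 CPM at 24 h (0.21, edgeR adjusted p = 0.452). BAG3, which passes clients of HSPB8 to autophagy, rose from 295 to 817 ± 177 CPM at 8 h (1.47, edgeR adjusted p = 1.04e-05) and was called at no other time. HSPB8 was higher at all 7 times, with 2.85 at 8 h, 2.73 at 24 h and 0.88 at 48 h. HSP90AB1 was highest at 24 h, at 1070 ± 165 CPM against 525 CPM (1.03, edgeR adjusted p = 5.32e-05). Whether the courses of these chaperones and of the proteasome genes differ was not tested.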
